A study of Drosophila melanogaster with 2 samples.

Results

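Intergenic binding sites of the Drosophila melanogaster protein CG30020 were taken from the authors' list of peaks thresholded by irreproducible discovery rate (IDR). That rate measures how alike peaks rank in 2 replicates, and the list held the 5048 pooled peaks with the highest signal. A peak was kept when its summit lay outside chromosomes 4 and Y, more than 500 bp from every annotated transcription start site (TSS) and inside no annotated gene, transposable element entries being left out of both. Of 5048 IDR peaks 453 met this rule, and they formed 362 separate intervals once overlapping IDR intervals had been joined. Within the IDR list location alone chose them, but entry to that list was set by signal, so their levels were selected to be high among intergenic peaks. The study mapped binding by ChIP-seq, which sequences the DNA that an antibody pulls down with a protein, in 1 group. These were intact embryos of both sexes, aged 0 to 24 h, from a stable transgenic line that carries CG30020 with GFP at its C terminus. The group has 2 biological replicates, numbered 2 and 3 in the labels, with fragments of 200 to 800 bp. The labels describe an immunoprecipitation against GFP, although the antibody field names CG30020. All cell types of the embryo are mixed, what drives the fusion is not stated in the labels, and no untagged or mutant embryos are among the samples, so no group was compared with another. Sequencing depth is unknown from peak lists.

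Intergenic DNA of a fly holds enhancers, insulators, silencers, the outer parts of promoters and many repeats. A sequence-specific factor can be found there at an enhancer or insulator of a distant gene, at an unannotated start site, or on the shoulder of a strongly bound promoter. Toward the centromeres the arms pass into heterochromatin, where genes are few, gaps between them are long and transposable elements are dense. CG30020 encodes a zinc finger protein, and the data give only where it was found.

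The summit windows shown here are the strongest members on the arms 2L, 3L, 3R and X whose interval is not joined to that of a promoter summit, with the strongest such members of the same arms that hold a TATA box or a Su(Hw) core, so that the letters at strong free-standing sites can be read. They are not the strongest free-standing members of the whole genome. Each is 101 bases of the plus strand of dm6, centred on the summit, from the RefSeq sequence of Release 6. Capitals mark every match, on either strand, to 1 of 25 short motifs searched. The ones that occur are the TATA box TATAAA, the DNA replication-related element (DRE) TATCGATA, its core CGATA, which lies inside the DRE and overlaps it, the Su(Hw) core TGCATA, the homeodomain core TAATTA and the Grainy head motif ACCNGTT.
CG41128 gap, chr3R:3789765-3789865: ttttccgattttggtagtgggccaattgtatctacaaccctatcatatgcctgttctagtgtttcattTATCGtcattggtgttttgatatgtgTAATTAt
lncRNA:CR43242 gap, chr2L:23075523-23075623: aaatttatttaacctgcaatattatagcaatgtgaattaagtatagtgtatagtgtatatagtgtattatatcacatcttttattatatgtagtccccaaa
histone-Lamp1 gap, chr2L:21559800-21559900: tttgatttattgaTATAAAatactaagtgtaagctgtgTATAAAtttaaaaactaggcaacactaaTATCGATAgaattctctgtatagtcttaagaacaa
CG40045 gap, chr3L:24020897-24020997: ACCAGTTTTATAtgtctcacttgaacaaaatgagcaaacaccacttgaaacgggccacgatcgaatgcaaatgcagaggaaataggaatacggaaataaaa
ph-d and ph-p gap, chrX:2124073-2124173: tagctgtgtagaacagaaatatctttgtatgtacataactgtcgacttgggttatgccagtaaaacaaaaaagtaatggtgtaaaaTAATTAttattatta
Slmap gap, chr2L:22570221-22570321: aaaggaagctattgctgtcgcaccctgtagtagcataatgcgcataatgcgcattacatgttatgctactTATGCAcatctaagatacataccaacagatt

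The windows differed widely in composition, from 23.8% GC at lncRNA:CR43242 to 39.6% in the Slmap gap. The histone-Lamp1 window, which lies between the tandem histone gene cluster and Lamp1 (a lysosomal membrane protein), held a pair of TATA boxes and a whole DRE. The window at lncRNA:CR43242, among the strongest of all members, held none of the 25 motifs. Of all 101-bp windows that meet the location rule, 12.6% hold TATAAA, 10.5% CGATA, 0.209% the DRE, 6.97% TGCATA, 7.46% TAATTA and 2.84% ACCNGTT, so the TATA box and the CGATA core are each found in over 10% of windows. A match describes letters and does not show a bound site.

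Most members were weak, and a few were very strong. Signal per peak is the authors' own value on a scale that is not stated, and values are given as multiples of the median over IDR peaks in that list. In the pooled list the 453 members ran from 0.528 to 39.3 times, with a median of 0.874. The median was 0.935 in replicate 2 and 0.838 in replicate 3, each relative to the median of the peaks matched in that replicate. At or above the IDR median lay 191 members. A multiple of 5 or more was reached by 16 of the 453 members, 268 of 3542 promoter peaks and 301 of all 4849 IDR peaks on the 5 large arms. Of these 16 members 11 lay in a joined interval that also held a promoter summit, and 5 of the 378 members without such a summit reached that level.

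Among the peaks of the IDR list, the members resembled intron peaks in strength and lay below promoter peaks. All classes were cut at the same pooled signal, so their medians describe the peaks above it and not each class as a whole. Promoter peaks (3542 summits within 500 bp of a TSS on the 5 large arms) had a median of 1.04 times, and intron peaks (777 summits in introns, over 500 bp from a TSS) 0.832 times. The difference in median log2 signal between members and promoter peaks was -0.25 in the pooled list, -0.14 in replicate 2 and -0.32 in replicate 3 (mean -0.23 ± 0.13 SD, n = 2 replicates), so both replicates gave the same sign. Between members and intron peaks it was 0.072 in the pooled list, 0.087 in replicate 2 and -0.0083 in replicate 3 (mean 0.039 ± 0.067 SD, n = 2), which is within the spread of the replicates. With 1 group of 2 replicates no test was run, and p-values are not given.

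Most of the strongest members lay near the centromeres, where promoter peaks were strong as well. Each arm was divided, after the positions had been seen, into a proximal zone (2L from 22 Mb, 2R below 6 Mb, 3L from 23 Mb, 3R below 5 Mb and X from 22 Mb) and the distal remainder. The proximal zones held 208 members and the distal ones 245. Of the 16 members at 5 times or more, 15 were proximal, and the other was the histone-Lamp1 member on 2L at 21559850. All 11 that shared an interval with a promoter summit were among the 15, and 109 of the 241 proximal promoter peaks reached the same level. The pooled median was 1.01 times in the proximal and 0.814 times in the distal zones. In replicate 2 these medians were 1.39 and 0.736, a log2 difference of 0.92, and in replicate 3 they were 0.904 and 0.818, a difference of 0.14. The replicates therefore gave the same direction with very different sizes (mean 0.53 ± 0.55 SD, n = 2). Promoter peaks of the proximal zones were stronger than the members there: the log2 difference of the members from them was -1.92 in the pooled list, -1.83 in replicate 2 and -2.11 in replicate 3. Against intron peaks of the same zones the members differed by 0.11, with 0.13 in replicate 2 and 0.18 in replicate 3. In the distal zones the difference from promoter peaks was -0.31, with -0.43 and -0.31 in replicates 2 and 3. There the difference from intron peaks was -0.0061, with -0.089 and -0.058 in replicates 2 and 3, the opposite sign to that in the proximal zones.

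**Figure D1:**
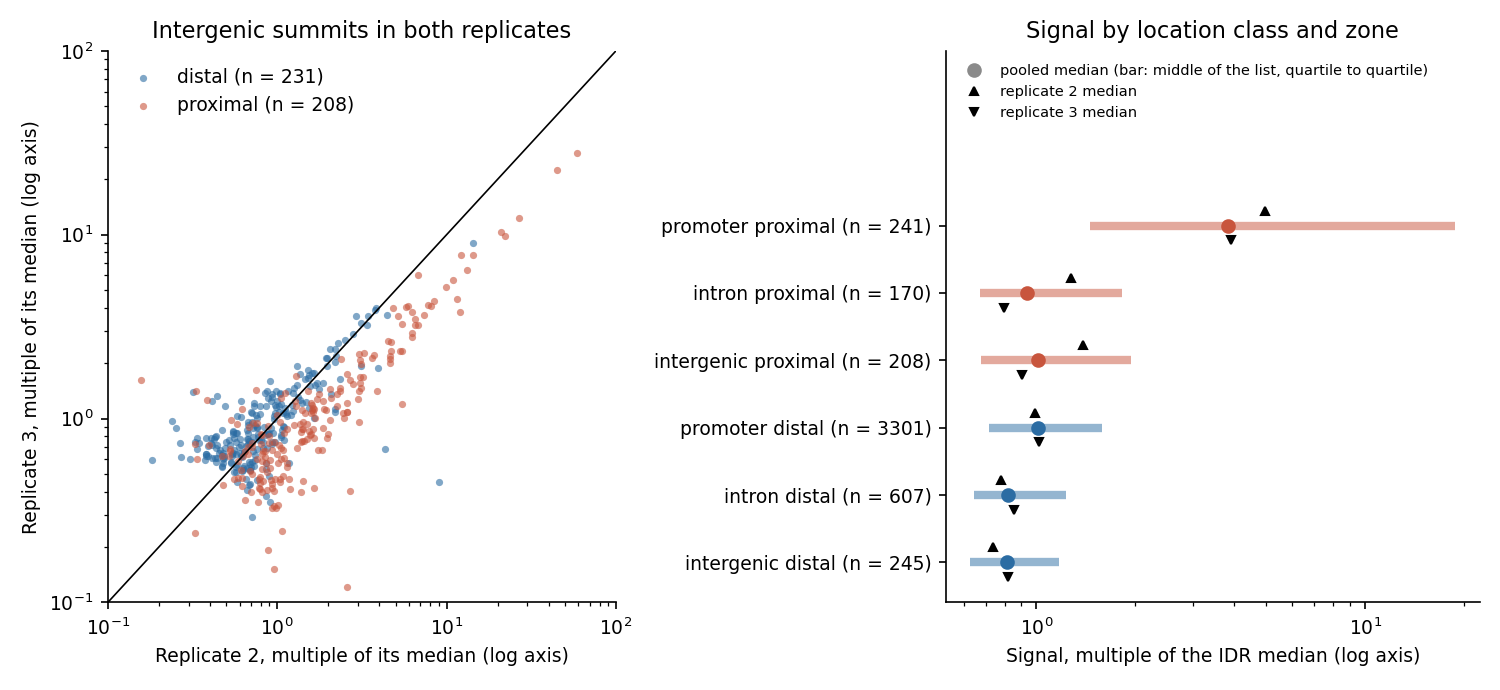
Signal of the intergenic summits, as multiples of the median IDR peak. Left, each point is 1 summit found in both replicates, with replicate 2 on the horizontal and replicate 3 on the vertical log axis, the line marking equal values. Most of the 208 proximal points lie below the line and most of the 231 distal points above it. Right, median (circle) and quartiles (bar) in the pooled list and the median in each replicate (triangles) for each location class and zone, where proximal promoter peaks stand apart at a median of 3.83 times.

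Replicate 2 gave the higher multiple at 181 of the 208 proximal members (87.0%) but at only 86 of the 231 distal members found in both replicates (37.2%). The median log2 ratio of replicate 3 to replicate 2 was -0.73 in the proximal and 0.14 in the distal zones. All 20 of the strongest members were higher in replicate 2. The other classes shifted in the same way: the mean log2 ratio was -0.67 for proximal members, -0.50 for proximal promoter peaks and -0.61 for proximal intron peaks. Distally it was 0.15 for members, 0.059 for promoter peaks and 0.18 for intron peaks. The shift between the replicates thus goes with the zone in all 3 classes, and its cause was not tested.

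The strongest member lay in a gap of 94375 bp between CG41128 and CG41099 near the centromere of 3R (interval 3789071 to 3790705, summit 3789815), 39452 bp from the nearest TSS. Its multiple was 39.3 in the pooled list, 59.2 in replicate 2 and 27.8 in replicate 3, and it ranked 30 among all 5048 peaks. Its nearest promoter summit was 39475 bp away, so it was far from any bound start site. The next was 1312 bp upstream of Haspin, a mitotic histone H3 kinase, on 2R (summit 4012799), at 30.7 times in the pooled list, 45.1 in replicate 2 and 22.5 in replicate 3. Its interval of 5275 bp also held a promoter summit, 1267 bp away.

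The third was 1031 bp upstream of mRpS5, a protein of the mitochondrial ribosome, on 3L (summit 24536205), at 17.6, 26.6 and 12.4 times in the pooled list, replicate 2 and replicate 3. Like the Haspin member it held a DRE and shared its interval with a promoter summit. Between RpL38, a ribosomal protein of the large subunit, and Stlk on 2R lay a pair of members 229 bp apart (summits 4544757 and 4544986) with pooled multiples of 14.3 and 4.79, replicate 2 values of 21.0 and 8.13, and replicate 3 values of 10.3 and 4.10. On 2L a pair 216 bp apart (23075573 and 23075789) lay 6568 and 6784 bp from lncRNA:CR43242, at 14.3 and 4.79 times, with no promoter summit in the interval. Replicate 2 gave 22.04 and 7.33 for this pair, and replicate 3 gave 9.81 and 3.65. Summits this close lie in 1 joined interval and are not separate regions.

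The histone-Lamp1 member (2L, summit 21559850) stood at 11.0 times in the pooled list, 14.4 in replicate 2 and 8.99 in replicate 3. It lay 13539 bp from the TSS of Lamp1, in a gap of 29700 bp that borders the histone pseudogene His-Psi:CR31614 and whose nearest protein-coding gene on the other side is His3:CG33866, a histone H3 gene. It falls outside the proximal zone as drawn. A further member in the same interval, at 21558447, stood at 1.92 times, with 2.36 in replicate 2 and 1.64 in replicate 3. Without the summit at 21559850 the highest distal value was 4.04 times.

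The other members among the 20 strongest, ranked 7 to 20 with the close partners already given, ran from 4.77 to 10.2 times and were all proximal, on 2L and 2R. They lay nearest to CG14464, CG10417, Spf45 (a splicing factor), Slmap, lncRNA:CR46489, CG41378, CG10465, Tim23 (a subunit of the translocase of the mitochondrial inner membrane), p120ctn (a catenin that binds cadherin), stw and CG3107. Slmap was nearest to 2 of them, at 7.53 times 1000 bp from its TSS (10.9 in replicate 2 and 5.70 in replicate 3) and at 6.95 times 11466 bp from it (9.96 and 5.19). The member nearest to lncRNA:CR46489 (2R, 3500749) stood at 7.00 times in the pooled list, 11.5 in replicate 2 and 4.46 in replicate 3, and its nearest promoter summit was 513317 bp away. At the other end, the weakest 3 members lay nearest to snoRNA:Psi28S-3436b on X (0.530 times), SERCA on 2R (0.528 times), the calcium pump of the endoplasmic reticulum, and Tom on 3L (0.528 times), the last without a match in replicate 2.

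After the histone-Lamp1 member, the strongest distal members lay next to genes of many kinds. These gene pairs, and the gaps given below by their number of members, were chosen after their values had been seen. Between blw, the alpha subunit of ATP synthase, and CycB, the mitotic cyclin B, on 2R (22802946) the multiple was 4.04 in the pooled list, 4.46 in replicate 2 and 3.67 in replicate 3. Between COX7AL2 and CG31668 on 2L (2202403) it was 4.03, 3.81 and 4.01. Members in short gaps of 257 bp between CG8668 and PAPLA1 on 2L (8134138) and of 437 bp between Sol1 and Cyp9f2 on 3R (12403139) stood at 3.49 and 3.36 times.

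Genes of the Polycomb group, which keep developmental genes silent, bordered several of the strongest distal members. On X a member lay 837 bp upstream of ph-d, in the gap of 2923 bp that separates it from its neighbour ph-p, both of which encode Polyhomeotic subunits of Polycomb repressive complex PRC1. It stood at 3.88 times in the pooled list, 3.76 in replicate 2 and 3.88 in replicate 3, and its window is the X sequence printed above. A second summit 212 bp away stood at 1.23 times, with 2.21 in replicate 2 and 1.08 in replicate 3. On 2R, in the gap of 10284 bp between CG13321 and Psc, another PRC1 gene, members at 12958227 and 12959410 stood at 3.32 and 2.90 times. Replicate 2 gave 3.13 and 2.79 for them, and replicate 3 gave 3.33 and 2.90. In the gap of 36783 bp between Su(z)2, a paralogue of Psc, and CG13323 a member at 13035330 stood at 3.64 times, 3.43 in replicate 2 and 3.60 in replicate 3, with its nearest promoter summit 50104 bp away. In both of these 2R gaps the flanking genes are convergent, so Psc and Su(z)2 border them with the ends away from their start sites. The nearest TSS there was not that of the Polycomb group gene. It was that of CG13321, at 4674 and 5857 bp, and that of CG13323, at 11926 bp.

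Of the 453 members, 10 had a Polycomb or Trithorax group gene as nearest TSS or as a flanking protein-coding gene (jing, ph-d, ph-p, Psc and Su(z)2), a count for which no share of windows was computed. It includes 3 members spread over 227.6 kb between Pld and jing, the highest at 0.833 times. Another 2 lay in 1 joined interval between Psc and CG33798, the higher at 0.867 times, so the count is not one of separate regions. By nearest TSS the list had 2 members (0.442%, against 0.0608% of all windows meeting the rule), the ph-d summits 212 bp apart, which lie in 1 joined interval and are a single region. Of the 38 homeotic and segmentation genes on the list, 7 (bcd, ems, oc, ptc, slp1, slp2 and wg) were nearest to 1 member each, all distal, or 1.55% of members against 0.883% of windows. The gap between slp1 and slp2, forkhead genes of the pair-rule class, held members at 1.97 times (1.98 in replicate 2 and 1.92 in replicate 3) and 1.24 times (1.23 and 1.19). Members nearest to ptc, the Hedgehog receptor, and wg, a Wnt ligand, stood at 1.14 and 1.04 times. A pair upstream of bin, a forkhead gene of the visceral mesoderm, stood at 1.63 and 1.06 times.

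Cytoplasmic ribosomal protein genes were nearest to 17 members, all proximal, or 3.75% against 0.437% of windows of both zones, and no share of proximal windows alone was computed. These members lay at only 3 of the 91 genes (RpL10, RpL15 and RpL38). Several near RpL15 lay in 1 interval of 9091 bp and several near RpL38 in 1 of 5736 bp. Each of these intervals also held a promoter summit, so the 17 are not separate regions. The strongest near RpL10 on 3L (23081489) stood at 4.26 times, 5.16 in replicate 2 and 3.63 in replicate 3, at 13982 bp from the TSS. The strongest near RpL15 (27262192) stood at 3.38 times, 5.28 and 2.34. Among the other lists, mitochondrial ribosomal protein genes had 1 member (mRpS5), or 0.221% against 0.0151% of windows. The Notch pathway list had 0 by nearest TSS, against 0.0622% of windows. By coding neighbour it had 3, led by E(spl)m3-HLH at 1.60 times, a count for which no share of windows was computed. Cuticle protein genes were nearest to 3 members (0.662%, against 0.466% of windows) and chemosensory receptor genes to 4 (0.883% against 1.53%). For tRNA genes there were 3 (0.662% against 0.908%), and for small nucleolar or nuclear RNA genes 2 (0.442% against 0.409%).

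The insulator factor, ecdysone response, ion channel, neural precursor and microRNA lists were nearest to 0 members. They were nearest to 0.00112%, 0.0890%, 0.188%, 0.308% and 0.364% of windows, so few or no members would fall to them at those shares. The dorsal-ventral list had 2, both at bin (0.442% against 0.190% of windows), the imaginal disc list 1, eyg (0.221% against 0.435%), and the cell adhesion list 1, Toll-6 (0.221% against 0.399%). Long non-coding RNAs were nearest to 103 members, 22.7% against 24.8% of windows. By biotype 324 members (71.5%) were nearest to a protein-coding TSS, against 66.9% of windows. None of the members was nearest to CG30020, where the 7 IDR summits between 10879832 and 10899355 on 2R were all promoter summits. The one at its own TSS stood at 1.30 times, 1.29 in replicate 2 and 1.25 in replicate 3. Apart from the long non-coding RNA and cytoplasmic ribosomal protein lists, every list was nearest to 7 members or fewer, so its share rests on few members. Shares lay near those of windows for long non-coding RNAs and small nucleolar or nuclear RNAs. They lay above them for the ribosomal protein, Polycomb, homeotic, dorsal-ventral and cuticle lists, the first 2 kinds at few genes each. The imaginal disc, cell adhesion, chemosensory and tRNA lists lay below, as did the lists with 0 members.

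The members were unevenly spread over the arms. 3L held 152, 2R 124, 2L 99, 3R 55 and X 23. Per megabase of sequence that meets the rule, the distal zones together held 9.43 (8.31 in the strongest 5048 peaks of replicate 2 alone and 9.20 in those of replicate 3) and the proximal zones 20.3 (27.9 and 16.9). Counted as joined intervals the densities were 8.66 and 13.4 per Mb, a smaller difference between the zones. By that count the proximal zone was the denser on 2L, 2R and 3R. The distal zone was the denser on 3L (14.4 against 13.6 per Mb) and on X (4.91 against 0). Among distal zones 3L was the densest at 16.1 per Mb (15.4 and 15.9 in replicates 2 and 3), followed by 2L at 10.9 (8.64 and 10.8). 2R had 6.82, 3R 6.26 and X 5.38 per Mb.

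Among proximal zones the order was 2L at 35.5 per Mb (45.1 and 24.0 in replicates 2 and 3), 2R at 27.8 (36.7 and 26.1), 3L at 17.96 (28.5 and 13.9) and 3R at 11.1 (13.2 and 8.31). The 1.04 Mb of eligible sequence in the proximal zone of X held 0 members in all 3 lists, and 18 IDR peaks of other classes. Of IDR peaks of every class, members made up 32.2% of the 645 in proximal zones and 5.83% of the 4204 in distal ones. The proximal share was 45.9% of members, 21.9% of intron peaks and 6.80% of promoter peaks.

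**Figure D2:**
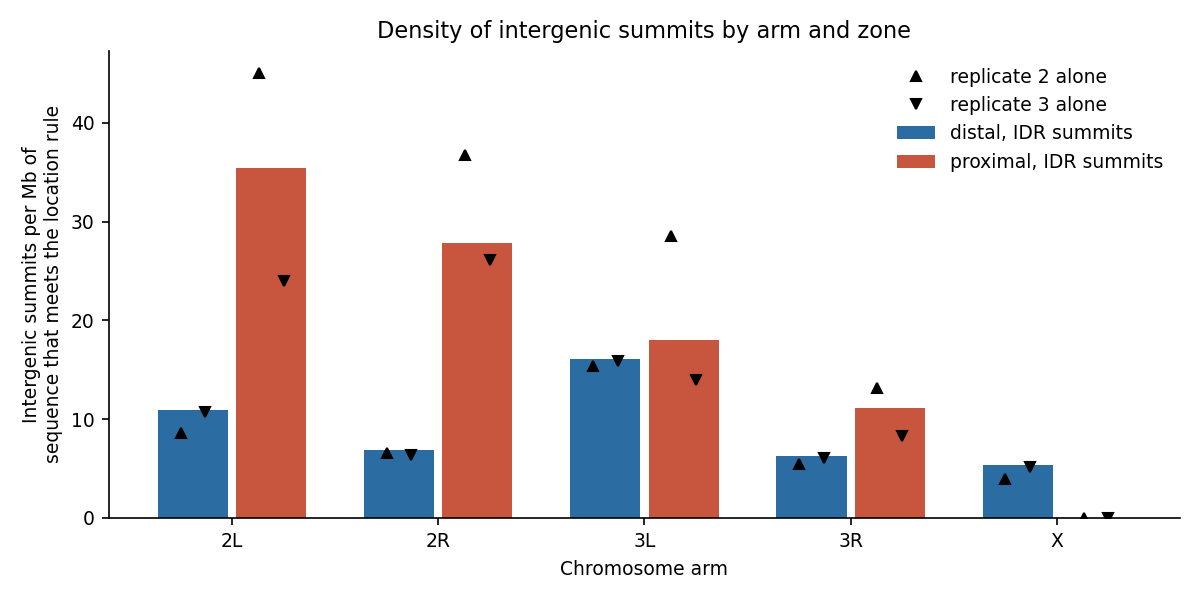
Intergenic summits per Mb of sequence that meets the location rule, by chromosome arm. Bars show IDR summits in the distal (blue) and proximal (red) zone, and triangles the same density in the strongest peaks of each replicate alone. Proximal bars run from 0 on X to 35.5 per Mb on 2L, and on every arm but X replicate 2 lies above replicate 3 in the proximal zone.

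Members near the centromeres lay in broader intervals. The interval of a member had a median width of 1200 bp in the proximal and 363 bp in the distal zones, with a range of 131 to 11845 bp over all. Width was counted per member, so an interval with several summits counts once for each. The 208 proximal members lay in 137 joined intervals and the 245 distal ones in 225, and no median per interval was computed. A total of 75 members (16.6%) lay in a joined interval that also held a promoter summit, 65 of them proximal. Another IDR summit lay within 250 bp of 111 members (24.5%), of which 81 were proximal, against 28.7% of promoter and 15.3% of intron peaks. At the isolated end, 121 of the 245 distal members (49.4%) had no other IDR summit within 5000 bp, and 41 of the proximal ones (19.7%). Without the 75 members that share a promoter's interval the median was 0.832 times, and the log2 difference from promoter peaks was -0.32 in the pooled list, -0.21 in replicate 2 and -0.35 in replicate 3.

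Members lay closer to start sites than the sequence open to them. Their median distance to the nearest TSS was 3453 bp, against 5945 bp over all windows that meet the rule. In the distal zones it was 2100 bp against 4074 bp, and in the proximal zones 5739 bp against 31237 bp. Between 500 and 1000 bp of a TSS lay 22.04% of distal members and 10.2% of distal windows, and beyond 20000 bp lay 2.86% and 5.78%. In the proximal zones 14.4% of members and 62.1% of windows lay beyond 20000 bp. Over both zones together the median multiple was 0.898 between 500 and 1000 bp and 0.920 beyond 20000 bp. The zones are mixed differently in these bins, with 54 of 67 members distal in the nearer and 7 of 37 in the farther. Change of signal with distance within a zone was not computed.

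**Figure D3:**
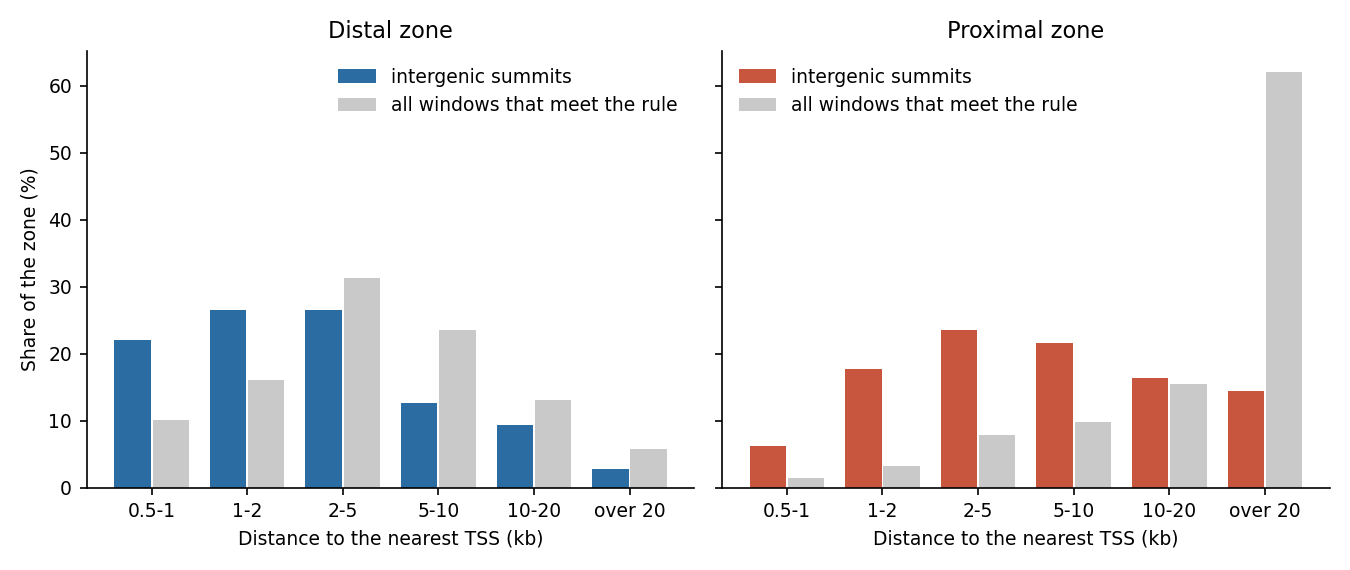
Share of intergenic summits (coloured) and of all 101-bp windows that meet the location rule (grey) by distance to the nearest TSS, in the distal and the proximal zone. Summits exceed windows below 2 kb in both zones, and beyond 20 kb proximal windows make up 62.1% against 14.4% of summits.

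The 5 members farthest from a TSS were all proximal. They lay 157129 bp from CG42598 on 3L (26528485, 1.60 times, 2.59 in replicate 2 and 1.09 in replicate 3), and 103219 and 103019 bp from CG42402 on 3R (1.84 and 0.625 times, with 3.00 and 0.951 in replicate 2 and 1.28 and 0.405 in replicate 3). The remaining pair were 68035 bp from CG40472 on 3L (0.622 times, 0.919 in replicate 2 and 0.463 in replicate 3) and 66855 bp from IntS3, a subunit of the Integrator complex, on 2R (0.546 times, 0.794 and 0.414). None of these summits lay in an annotated transposable element. At the near limit, members 501 bp from CG10479, 501 bp from stv and 504 bp from CG31523 stood at 1.61, 1.00 and 0.670 times, and the non-members 500 bp from Sodh2, 492 bp from Cnx99A and 491 bp from CG15172 at 0.862, 0.572 and 0.933 times.

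Of the members 295 (65.1%) lay upstream of their nearest TSS, against 58.6% of windows. By the orientation of the flanking genes, 253 members lay in tandem gaps, 105 in divergent and 93 in convergent ones, or 55.8%, 23.2% and 20.5% against 50.7%, 20.2% and 25.6% of windows. At 253 members (55.8%) at least 1 flanking gene was itself bound at a promoter, with an IDR summit within 500 bp of a TSS. Among the 378 members without a promoter summit in their joined interval it was 47.6%. Over all 5882 gaps between genes that share was 26.2%, and over the windows, which weight a gap by its length, it was 28.6%. In the distal zones it was 28.6% of members against 12.9% of windows, and in the proximal zones 88.0% against 68.4%.

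Counted by gap, 257 gaps held a member and 45.5% of these had a bound flanking gene. In the distal zones the figures were 30.0% of 180 gaps with a member and 24.8% of all 5587 gaps, a smaller difference than by member. In the proximal zones they were 81.8% of 77 gaps with a member and 53.6% of all 295 gaps. Over both zones gaps with a member were longer, with a median of 10378 bp against 1999 bp. The strongest 5048 peaks of replicates 2 and 3 alone gave 62.5% and 54.4% for the share of members next to a bound gene. With 1 summit per joined interval it was 38.3%.

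Several gaps held many members. The gap between CG17493 and Slmap on 2L, 22776 bp long, held 11 (5 joined intervals, highest 7.53 times), and the gap between the pseudogene CR43170 and RpL15 on 3L, 96687 bp long, held 11 (4 joined intervals, highest 3.38 times). The next protein-coding gene beyond CR43170 is vtd, which encodes the cohesin subunit Rad21. RpL38 to Stlk held 7, and 6 each lay between IntS3 and Gprk1, between Tif-IA and Marf1, between UQCR-11 and CR40354, and between d4 and sxc, the last an O-GlcNAc transferase. The highest values in these gaps ran from 1.11 times at d4 to 14.3 times at RpL38. Between ND-MLRQ and AGO3, an Argonaute protein of the piRNA pathway, 5 members were spread over 185 kb.

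Some distal gaps also held several members. Between lncRNA:CR44363 and CG7560 on 3L 6 members in 4 joined intervals spanned 6.95 kb (highest 1.71 times). Between the coding genes RFeSP and chinmo, a zinc finger gene of neural timing, 5 members spanned 16.9 kb (highest 2.54 times). Between NijA and CG43245 5 members spanned 71.4 kb (2.13 times), and between Ids and sty, the inhibitor of receptor tyrosine kinase signalling Sprouty, 5 spanned 13.6 kb (1.67 times). Between mtSSB and tara on 3R 4 members lay within 2.68 kb, the highest at 2.69 times, 3.92 in replicate 2 and 1.89 in replicate 3. No member at CG7560, NijA, sty or chinmo had a bound flanking gene.

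Base composition at summits differed between the zones, at members and at intron peaks. At distal summits the mean GC content of the 101-bp window was 31.0% ± 8.33 (SD over 245 windows), against 43.7% ± 8.47 in windows 300 bp to either side and 41.0% over all distal windows that meet the rule. The summit was richer in GC than its flanks at only 42 distal members (17.1%). Intron peaks of both zones together had a like dip, to 31.6%, and promoter peaks one to 34.1%. At proximal summits GC was 35.4% ± 8.10, flanks had 35.1% ± 6.31, and 112 of 208 summits (53.8%) were richer than their flanks, so there was no dip on average. Summits and flanks alike were below the 40.3% of all proximal windows that meet the rule. Over all 453 members GC was 33.0%, with 33.9% and 32.6% at the members of replicates 2 and 3 alone.

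**Figure D4:**
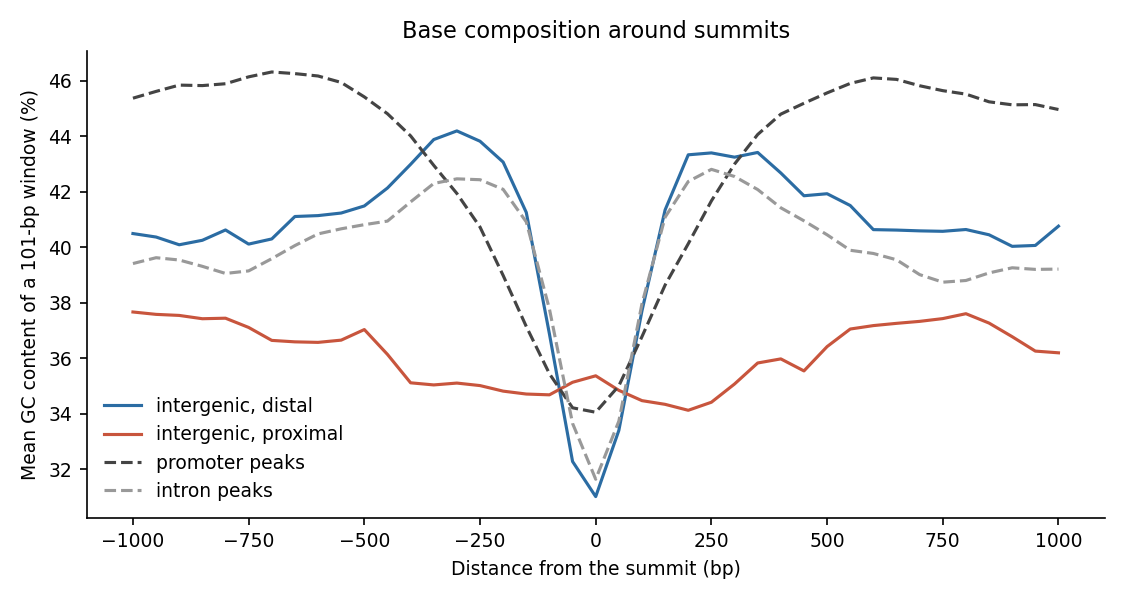
Mean GC content of 101-bp windows from 1000 bp upstream to 1000 bp downstream of the summit on the plus strand, for distal (blue) and proximal (red) intergenic summits, promoter peaks and intron peaks. The distal curve falls to 31.0% at the summit between shoulders of up to 44.2%, whereas the proximal curve stays between 34.1% and 37.7%.

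The AT-rich core of distal members was short. Their mean GC reached 43.1% at 200 bp before and 43.3% at 200 bp after the summit. An unbroken run of 15 or more A or T bases lay in 19.6% of distal windows, against 7.14% of their flanks and 9.13% of distal windows that meet the rule, and in 20.7% of promoter and 20.3% of intron peaks. Runs of 8 or more of a single A or T were about as frequent as in the sequence at large, at 6.94% against 5.86%. The share of members with at least 50% of the window soft-masked as repeat was 19.6% of distal members against 10.9% of distal windows, and 25.5% of proximal members against 38.8% of proximal windows. Soft-masking also covers simple AT-rich repeats.

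Annotated transposable elements held 44 member summits (9.71%, against 10.5% of windows), 40 of them proximal. In the proximal zones the shares were 19.2% of members and 18.5% of windows, and in the distal zones 1.63% and 7.35%. The elements were of many families, led by 1360, a DNA transposon, and INE-1, the abundant short element of heterochromatin, with 5 members each. Reads in repeated sequence can be placed in more than 1 copy, and how the authors treated them is not given in the sources used here.

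Of the 25 motifs, TATAAA was the most frequent at members. It was found at 93 members (20.5%), against 14.8% of flanks and 12.6% of windows that meet the rule, with 21.1% and 22.3% at the members of replicates 2 and 3 alone. In the distal zones it was at 24.5% of members and 8.98% of their flanks, close to promoter peaks (23.1%) and intron peaks (27.0%). The word holds only A and T, and distal summits had less GC than their flanks. What part composition has in these shares was not tested. CGATA was found at 80 members (17.7%, against 10.5% of windows), more often in the proximal (23.1%) than in the distal zones (13.1%), and at 30.9% of promoter peaks.

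The whole DRE, the binding element of the housekeeping promoter factor DREF, was found at 12 members (2.65%, 2.19% and 2.67% in replicates 2 and 3), 9 of them proximal. The share was 0.209% of windows, 1.67% of intron peaks and 7.17% of promoter peaks. The 12 included 3 of the 6 strongest members, at Haspin, mRpS5 and the histone-Lamp1 gap. Of the others, 1 was at CG3107 (4.77 times) and the remaining 8 stood at 0.530 to 1.32 times, nearest to Haspin, Ir40a, lncRNA:CR45180, lncRNA:CR46075, lncRNA:dntRL, ND-AGGG, RpL10 and snoRNA:Psi28S-3436b. The DRE is thus found across the whole range of signal.

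Other motifs differed less from the windows or were rarer. The Su(Hw) core TGCATA was at 39 members (8.61% against 6.97% of windows), the Initiator TCAGT at 73 (16.1% against 15.3%), TAATTA at 38 (8.39% against 7.46%), the early embryonic Zelda motif CAGGTAG at 5 (1.10% against 0.429%) and Motif 1, GGTCACAC, at 4 (0.883% against 0.129%). GAGAG, the letters bound by GAGA factor and CLAMP, was at 28 members (6.18%), below the 11.0% of windows and the 13.0% of flanks. Its 8-base form GAGAGAGA, which contains it, was at 3. The E-box CACGTG was at 0 members and 1.09% of windows.

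**Figure D5:**
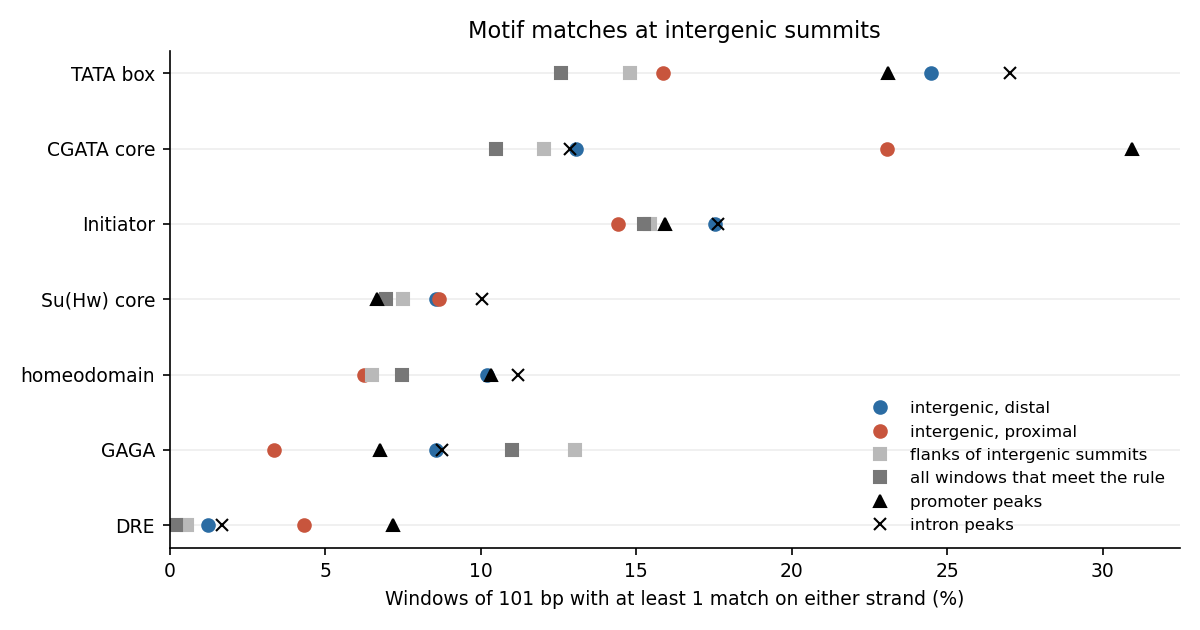
Share of 101-bp summit windows with at least 1 match to each motif, on either strand, for distal (blue) and proximal (red) intergenic summits, their flanks (light squares), all windows that meet the location rule (dark squares), promoter peaks (triangles) and intron peaks (crosses). TATAAA is most frequent at distal summits among the intergenic sets (24.5%), CGATA and the DRE at proximal ones (23.1% and 4.33%), and GAGAG is below the windows in both zones.

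Among all 6-base words, with each counted together with its reverse complement, the 5 with the highest ratio of members to flanks, among those in at least 10% of members, were all rich in A and T. The word GTAATA was in 11.7% of members, 2.41 times its share of flanks, and in 10.9% of intron peaks. TATTCA was in 11.9% of members, 2.25 times its share of flanks, and in 11.2% of intron peaks. AGTAAT followed with 10.4%, 2.19 times the flanks, and 8.75% of intron peaks. ATATTA was in 24.7% and ATAATA in 22.96% of members, each 2.17 times the flanks, and in 26.8% and 23.6% of intron peaks. The summits also had less GC than their flanks, as given above, and the part this has in the shares was not tested.

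The members are the strong end of a large pool of weak intergenic peaks. Of 30000 relaxed pooled peaks 6513 met the location rule, and 453 of these (6.96%) were in the IDR list, against 16.8% of all relaxed peaks, 39.3% of those at promoters and 7.45% of those in introns. The IDR list held exactly the 5048 pooled peaks with the highest signal, so this share is the part of each class above 1 level of signal. By zone it was 7.57% of 3238 distal and 6.35% of 3275 proximal intergenic peaks.

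Members were kept by pooled signal, to which both replicates contribute, and not peak by peak for presence in each. Presence in both replicate lists is therefore not independent of the choice of list and is given as a description. A summit within 250 bp was present in both relaxed replicate lists for 439 members (96.9%), against 97.7% of promoter and 96.4% of intron peaks. Among the strongest 5048 peaks of each replicate the share in both was 73.1% of members (331), 83.5% of promoter and 71.6% of intron peaks. In the distal zones 75.1% of members were among the strongest of replicate 2 and 89.4% among those of replicate 3, and in the proximal zones 96.6% and 85.6%. The matched summit lay a median of 14 bp away in replicate 2 and 9 bp away in replicate 3.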

How the data were processed

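Peaks of CG30020-eGFP ChIP-seq in 1 group of embryos with 2 replicates were taken from 4 lists the authors deposited on dm6. Each replicate and the pooled libraries had 30000 peaks called against 1 control alignment, and the IDR list was derived from them, per the deposited notes. Aligner and peak caller: not given in the sources used here. Control reads were not analysed here. The signal per peak is as the authors deposited it. In the pooled list it was divided by the median over IDR peaks. In a replicate it was taken from the nearest summit within 250 bp and divided by the median of the values so matched. That summit is shared with another peak by 12 and 4 members in replicates 2 and 3. Depth is unknown, which limits precision to the spread of the replicates.

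Genes were those of Ensembl release 115, and the sequence was RefSeq's copy of Release 6, the sequence of dm6. Windows of 101 bp tiled all 358601 positions that meet the rule as background. Counts, medians and shares were computed in Python 3.11.15 with numpy 2.4.6 and pandas 2.3.3, and checked on simulated data. Members, 25 motifs, 18 gene lists and zones were chosen with earlier results of these data known. Genes were named by rule: the 20 strongest, 5 farthest and 3 weakest members, 3 to each side of the limit, and up to 4 strongest per list, of which not all are printed. Alternatives were other distances, whole intervals, the stronger peaks, coding genes only, 1 summit per joined interval, each replicate alone and other windows, with repeat-rich bins, RefSeq gene models and other matching chosen after seeing the data. No tests were run.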

Additional observations from a re-analysis of the deposited data

How the results depend on the processing

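Of 96 alternative values 67 stayed within the spread of the replicates or 1.5 times a count, 28 moved and 1 changed sign. Without replicate 3 or 2, the log2 difference from intron peaks ran from -0.052 to 0.069, so its sign is not settled. The same pair of lists gave 11.0% to 16.0% of members sharing an interval with a promoter summit, median TSS distances of 3420 to 4040 bp, 54.4% to 62.5% next to a bound gene, 18.9% to 22.6% masked and 42.0% to 57.0% proximal. With 1 summit per joined interval the values were 4009 bp, 38.3% next to a bound gene, 31.9% GC and 32.8% proximal. A limit of 250 bp gave 24.9% sharing an interval, 1525 bp, 31.9% GC, 34.4% proximal and 9.14% of relaxed peaks in the IDR list, and 1000 bp gave 4243 bp and 64.5% next to a bound gene. Whole intervals gave a median of 0.832 times, 2.05% sharing an interval, 4713 bp and 49.1% next to a bound gene. Coding genes alone gave 4247 bp. The stronger IDR peaks held 191 members, at 0.945 times their own median, -0.082 from promoter peaks in log2 signal and 21.99% sharing an interval. Windows of 100 bp to each side gave 16.6% masked and a ratio of 1.40 for CGATA to the grid, and windows of 25 bp 1.29 for TGCATA. Fewer peaks or another limit change these by construction, and other causes were not tested. Added after seeing the data, repeat-rich 100-kb bins held 49.4% of members, and RefSeq gene models gave the same 453. No paired analysis was possible because there is 1 group. Depth, control and mappability are unknown, so weak members near 0.528 times and repeated sequence are the least certain.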
